A study of Mus musculus with 40 samples.

Results

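The kidney transcriptome of mice given the highest TCDD dose of a dose series, 30 µg/kg, was compared with that of mice given vehicle alone. The 10 libraries were taken by their dose labels, 5 at 30 µg/kg and 5 at 0, out of 40 libraries in 8 dose groups. TCDD (2,3,7,8-tetrachlorodibenzo-p-dioxin) was dissolved in sesame oil and given by gavage at intervals of 4 days over 28 days. The vehicle mice received sesame oil on the same schedule, so gavage and oil are common to both groups. All mice were C57BL/6 males, 30 days old at the start and 58 days old at the end. RNA came from the right kidney, and bulk RNA sequencing counted reads per gene. The labels name no animal for a library, so p-values measure the spread between libraries. For edgeR this spread was pooled over all 40 libraries, unless the fit to the 10 libraries is named. Replicate numbers 1 to 5 follow accession order inside each group and link no libraries across groups. In tissue RNA of this kind, fewer cells of a type and less RNA per cell cannot be told apart.

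The aryl hydrocarbon receptor (AhR) is a transcription factor that is held in the cytoplasm until a ligand such as TCDD binds it. It then enters the nucleus, pairs with its partner ARNT and binds DNA at a short core motif, inducing Cyp1a1, Cyp1b1 and other genes of foreign-compound metabolism together with its own repressor, Ahrr. In the kidney, the proximal tubule burns fatty acids, reabsorbs solutes and secretes organic ions, and in male mice its later stretch expresses many genes that androgen maintains.

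Stretches upstream of 4 AhR targets are shown, chosen among the targets described below because they hold the AhR core motif. The AhR core motif, GCGTG or its reverse complement CACGC, was searched on both strands in the 250 bases before the start site of each gene in RefSeq (GRCm38.p6). It was present in 30.9% of all 27025 such windows and in 46.6% of those of tested genes. It was in 42.2% of the windows of genes called higher, 46.9% of those called lower and 47.1% of those not called. Of the 15 genes with a window in a list of AhR targets and regulators, 7 held it. A match is a description of the letters and shows no binding. Capitals mark the motif, and each stretch reads 5′ to 3′ on the gene's strand.
Cyp1a1: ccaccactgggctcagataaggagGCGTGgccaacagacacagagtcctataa
Cyp1b1: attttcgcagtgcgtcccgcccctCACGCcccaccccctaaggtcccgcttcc
Ahrr: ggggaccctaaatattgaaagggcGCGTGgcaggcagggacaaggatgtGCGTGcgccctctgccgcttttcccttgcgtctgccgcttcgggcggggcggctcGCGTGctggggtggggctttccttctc
Tiparp: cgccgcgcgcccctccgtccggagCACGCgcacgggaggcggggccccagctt
The Cyp1a1 stretch lies at chr9:57697535-57697587, the Cyp1b1 stretch at chr17:79715109-79715161 (minus strand), the Ahrr stretch at chr13:74292332-74292462 (minus strand) and the Tiparp stretch at chr3:65528253-65528305, each upstream of the first exon. Ahrr held 3 matches and the other genes shown 1 each.

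The libraries held 15746356 to 23738125 gene counts in vehicle and 15278423 to 24017319 at 30 µg/kg. Of 7 measures of library make-up, the share of reads in no annotated feature differed most, with a mean of 6.12% in vehicle and 6.73% at 30 µg/kg (two-sided exact permutation p = 0.0238, adjusted p = 0.167, n = 5 against 5). The smallest p this design allows is 0.00794. The tissue is labelled kidney, although the tissue ontology code beside that label is the one for liver. Markers of the early proximal tubule (13 genes) summed to 14989 to 20292 CPM (counts scaled to a common library size) in vehicle kidneys, and 11 abundant liver transcripts to 85.8 to 249.5 CPM.

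The 5 kidneys at 30 µg/kg differed more among themselves than those of any other group. The biological coefficient of variation, edgeR's estimate of replicate spread beyond counting error, was 26.0% in that group, against 18.0% in vehicle and 13.2 to 16.0% at the 6 lower doses. Over all 40 libraries the coefficient was 17.1%. The edgeR p-values and SEs of the fit to 40 libraries thus rest on a pooled spread smaller than that at 30 µg/kg. Of the genes tested, 66.2% had a larger SD of log2 CPM at 30 µg/kg than in vehicle. On the first principal component of the 10 libraries, which held 27.5% of the variance, treated replicates 1 to 5 lay at 0.20, 19.6, 56.5, 53.5 and 32.4. The vehicle replicates lay between -44.4 and -23.4. Treated replicate 1 thus lay nearest to vehicle, and replicates 3 and 4 farthest from it. Vehicle replicates were not uniform either, since the second component (15.6%) placed replicates 1 and 2 at 32.3 and 29.6 and the other vehicle replicates between -16.5 and -5.15. On that component treated replicates 2 and 3 lay at 15.6 and 46.6. Treated replicates 1, 4 and 5 lay at -22.8, -32.6 and -32.1, so it split both groups.

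**Figure D1:**
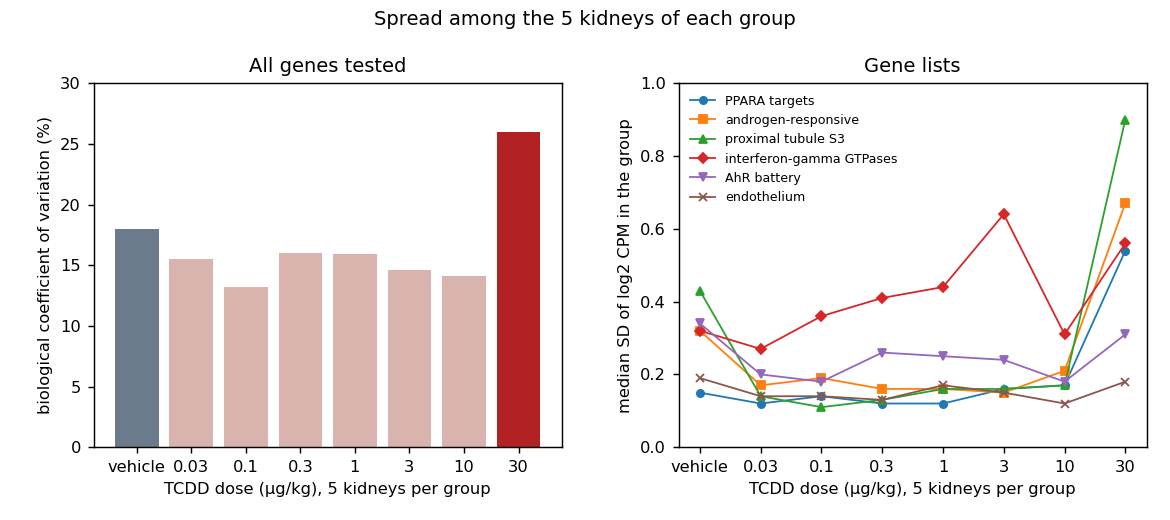
Spread among the 5 kidneys of each of the 8 dose groups. The bars give the biological coefficient of variation (%) over all genes tested, 26.0% at 30 µg/kg and 18.0% in vehicle, and the lines give the median SD of log2 CPM within a group for 6 gene lists against dose (µg/kg), with 0.90 for the late proximal tubule (S3), 0.67 for androgen-responsive genes and 0.54 for PPARA targets at 30 µg/kg.

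Of 17345 genes tested with edgeR's quasi-likelihood test over all 40 libraries, 2766 (15.9%) passed an adjusted p of 0.05. Of these, 1456 (8.39%) were higher and 1310 (7.55%) lower at 30 µg/kg. Among called genes the rises were larger than the falls. Genes called higher also varied more among vehicle kidneys, with a median SD of log2 CPM of 0.25 against 0.15 for those called lower. A less variable gene can pass with a smaller change, so sizes among called genes depend on spread too. The median log2 fold change was 0.71 among genes called higher and -0.41 among those called lower, and 466 (32%) against 178 (13.6%) reached an absolute value of 1. The 5 treated kidneys lay outside the range of the 5 vehicle kidneys for 1112 genes (6.41%), above it for 622 (3.59%) and below it for 490 (2.83%). When only these 10 libraries were fitted, which lets their own spread set the error, 969 of 15419 genes (6.28%) were called, 631 higher (4.09%) and 338 lower (2.19%). Of the 1456 rises 42.4% were called there too, and of the 1310 falls 25.7%. The shares called over all genes in each fit are the background for the list counts given below.

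Each treated kidney took part in the change to a different extent. Replicate 1 lay above all vehicle kidneys for 65% of the genes called higher and below all of them for 56.8% of those called lower. For replicate 2 the shares were 78.8 and 68.7%, for replicate 3 they were 81.6 and 87.7%, and for replicate 5 they were 89.4 and 86%. Replicate 4 had the highest shares, 92.8 and 92.7%. Among genes not called, the same kidneys lay above the vehicle range for 17.4 to 25.5% and below it for 17.1 to 24.1%. Since the calls were made with these kidneys, the shares are a description. Only 38.2% of the rises and 32.4% of the falls were shown by all 5 treated kidneys in this sense.

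**Figure D2:**
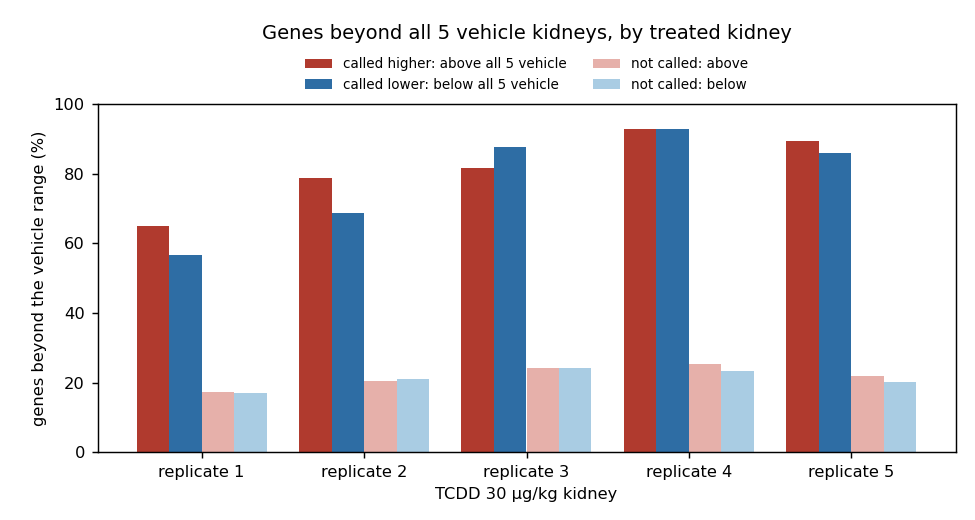
Share of genes (%) for which each treated kidney lay beyond all 5 vehicle kidneys, for genes called higher, genes called lower, and genes not called in either direction. Replicate 1 has the lowest shares of called genes (65 and 56.8%) and replicate 4 the highest (92.8 and 92.7%).

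The AhR targets Cyp1a1, Cyp1b1, Ahrr, Aldh3a1, Tiparp and Nqo1 rose, and all 5 treated kidneys lay above all 5 vehicle kidneys for each of them. Cyp1a1 (ENSMUSG00000032315), the classical AhR-induced monooxygenase, stood at 1.15, 4, 1.6, 3.42 and 1.7 CPM in vehicle replicates 1 to 5. In treated replicates 1 to 5 it stood at 2884, 2088, 2074, 2996 and 2644 CPM. The highest treated kidney was thus within 1.5 times the lowest, and no treated kidney came near the vehicle range (log2 fold change 10.07 ± 0.31 (SE), edgeR adjusted p = 2.58e-22). Cyp1b1 (ENSMUSG00000024087), a related monooxygenase, was at 21.4, 24.1, 19.9, 24.3 and 25.6 CPM in vehicle and at 179, 172, 189.7, 207 and 191 CPM in the treated kidneys. Its treated kidneys were the more even of the pair, with an SD of 0.10 on the log2 scale against 0.25 for Cyp1a1. Ahrr (ENSMUSG00000021575), the AhR repressor, was at 0.519, 0.608, 1.08, 1.05 and 2.27 CPM and at 15.2, 18.4, 10.7, 18.8 and 18.6 CPM. Replicate 3 was the lowest of the treated kidneys and still above every vehicle value. Aldh3a1 (ENSMUSG00000019102), an aldehyde dehydrogenase, rose from a range of 0.567 to 1.32 to one of 5.4 to 9.73 CPM, and Tiparp (ENSMUSG00000034640), an ADP-ribosyltransferase that damps AhR signalling, from a range of 24.2 to 34.7 to one of 38 to 48.4 CPM.

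Nqo1 (ENSMUSG00000003849), a quinone reductase that AhR and NRF2 both induce, was less even, at 139.9, 96.5, 159.9, 264 and 175 CPM in the treated kidneys against 35.8 to 57.7 CPM in vehicle. Replicate 4 was the highest and replicate 2 the lowest. Nfe2l2, which encodes NRF2, the main activator of antioxidant genes, rose from 101 ± 4.19 to 165 ± 17.8 CPM (SD, n = 5 each). Cyp1a2, at 0.618 to 1.59 CPM in treated and 0 to 0.395 CPM in vehicle kidneys, did not pass the test over 40 libraries (edgeR adjusted p = 0.113) but passed in the fit to the 10 libraries (edgeR adjusted p = 0.0259), and its treated kidneys lay above all vehicle kidneys. The receptor gene Ahr was at 10.1 ± 1.95 CPM at 30 µg/kg against 10.1 ± 1.58 CPM in vehicle, and Arnt at 48.4 ± 5.07 CPM at 30 µg/kg against 45 ± 7.83 CPM in vehicle, neither past the test. In a list of 20 AhR targets and regulators 18 were tested, 13 rose and 0 fell, with a median log2 fold change of 0.77 against 0.01 over all genes. The fit to the 10 libraries called 12 higher and 0 lower.

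Targets of NRF2, which supply glutathione and conjugate reactive compounds, rose in part. Of 19 tested, 12 were higher and 2 lower, with a median log2 fold change of 0.36, and 7 and 1 in the fit to the 10 libraries. The glutathione transferase gene Gsta3 was at 148, 165, 197, 186 and 165 CPM in the treated kidneys against 73 to 128 CPM in vehicle, with no overlap. Gsta4, another transferase, rose from 38.4 ± 9.92 to 103 ± 29.9 CPM, and Gsr, glutathione reductase, from 198 ± 12.8 to 308 ± 55 CPM. Cbr3, a carbonyl reductase of the same list, was at 5.28, 3.73, 31.9, 69.8 and 15.7 CPM in treated replicates 1 to 5 against 0.723 to 1.53 CPM in vehicle. All treated values lay above vehicle, but replicate 4 was over 10 times replicate 2. Without replicate 4 its log2 fold change was 3.63 in place of 4.47.

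Among genes called in both fits with no overlap between the groups, the largest rise after Cyp1a1 was that of Atp12a (ENSMUSG00000022229), the catalytic chain of the colonic type of H,K-ATPase. It was at 0, 0.152, 0.13, 0.92 and 0.397 CPM in vehicle and at 20.9, 36.1, 69, 46.6 and 31.1 CPM in treated replicates 1 to 5 (log2 fold change 7.08 ± 0.54, edgeR adjusted p = 3.17e-11). Its log2 fold change was 7.87 without vehicle replicate 4, the highest of its group. Elovl3, which lengthens fatty acids, was at or under the floor of 3 counts per library in vehicle and at 1.31, 1.58, 1.29, 5.78 and 5.5 CPM in the treated kidneys, at least 19.1-fold higher. Its treated replicates 4 and 5, which are those with the later title numbers, stood above the other replicates. Apol7c, an apolipoprotein L gene, was at 7.44, 10.9, 3.05, 2.25 and 3.4 CPM against 0 to 0.608 CPM in vehicle, with a log2 fold change of 4.70, or 5.75 without vehicle replicate 2. Ugt1a10 stood at 9.49, 6.5, 30, 42.8 and 55.4 CPM in treated replicates 1 to 5 against 0.302 to 1.25 CPM in vehicle. Ugt1a2 stood at 4.54, 9.27, 68, 42.8 and 21.9 CPM against 0.734 to 3.28 CPM in vehicle, with a log2 fold change of 4.07, or 3.48 without treated replicate 3. These glucuronosyltransferase genes overlap other Ugt1a genes over 64.3 and 59.3% of their exonic sequence, which makes their separate counts uncertain.

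The largest falls under the same rule were in genes of low level. Smcp, a sperm mitochondrial capsule gene, was at 3.63, 2.13, 7.69, 5.26 and 3.29 CPM in vehicle and at 1.36, 0, 0, 0.281 and 0.0382 CPM in the treated kidneys. Its log2 fold change was -3.73 ± 0.51, and -5.69 without treated replicate 1, the highest treated value. Slc13a5, the citrate carrier, was at 1.56, 3.04, 1.9, 2.1 and 2.44 CPM in the vehicle and 0.739, 0.792, 0, 0.168 and 0 CPM in the treated kidneys. Igha, the constant chain of immunoglobulin A, fell from 2.27 ± 0.593 to 0.346 ± 0.27 CPM. Its call was lost in a limma-voom fit with a spread per group (limma adjusted p = 0.0687). Hrg, which encodes histidine-rich glycoprotein, fell from 3.97 ± 1.36 to 0.727 ± 0.489 CPM, and Col6a6, a collagen VI chain, from 8.66 ± 3.69 to 1.65 ± 1.27 CPM. Henmt1, Tmprss9, Gm44785, Gm4208 and Gm8956 completed the 10 genes, with log2 fold changes from -2.73 to -1.85. That of Gm8956 was -3.87 without treated replicate 1.

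Among such genes with a mean of at least 10 CPM, and leaving out the fixed genes and the largest changes, the rises with the lowest p in the fit to the 10 libraries were those of Peg3, Mt1, Neurl3, C1qb and Pros1. Peg3, an imprinted zinc finger gene, was at 26.9, 28.1, 23.9, 29.9 and 29.5 CPM in vehicle and at 71.1, 86.9, 92, 114 and 88.7 CPM in treated replicates 1 to 5. Mt1, a metallothionein that binds zinc and cadmium, was at 76.1, 77.3, 77.2, 86.8 and 71.6 CPM in the vehicle and 180.2, 172, 173, 235 and 198 CPM in the treated kidneys. Neurl3, a ubiquitin ligase gene, was at 8.93, 7.6, 8.77, 5.85 and 7.99 CPM in the vehicle and 33, 36.6, 22.6, 29.2 and 33 CPM in the treated kidneys. As the rule of choice required, the lowest treated kidney was above the highest vehicle kidney for each of these genes. Their log2 fold changes were 1.71 ± 0.15, 1.30 ± 0.13 and 1.98 ± 0.16. Pros1, the anticoagulant protein S, rose from 16.7 ± 1.08 to 35.4 ± 3.6 CPM, with an SD on the log2 scale of 0.15 among treated kidneys.

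Falls chosen in the same way were led by Klk1 (ENSMUSG00000063903), tissue kallikrein of the connecting tubule. It was at 1558, 1982, 2064, 1809 and 1539 CPM in vehicle and at 996, 876, 774, 826 and 861 CPM in the treated kidneys (log2 fold change -1.05 ± 0.09, edgeR adjusted p = 2.87e-11). The SD on the log2 scale was 0.13 among the treated and 0.19 among the vehicle kidneys. Kcnk5, a potassium channel of the proximal tubule, was at 201, 167, 166, 150 and 183 CPM in the vehicle and 88.5, 112, 83.4, 57.7 and 81.8 CPM in the treated kidneys. Cckar, a cholecystokinin receptor gene, fell from 108 ± 15.2 to 59 ± 10.5 CPM, Serpinf2, the plasmin inhibitor, from 403 ± 38.1 to 235 ± 43.9 CPM, and AI838599 from 25.2 ± 3.63 to 12 ± 2.48 CPM. The rule of choice allowed none of these 5 genes a treated kidney inside the vehicle range.

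**Figure D3:**
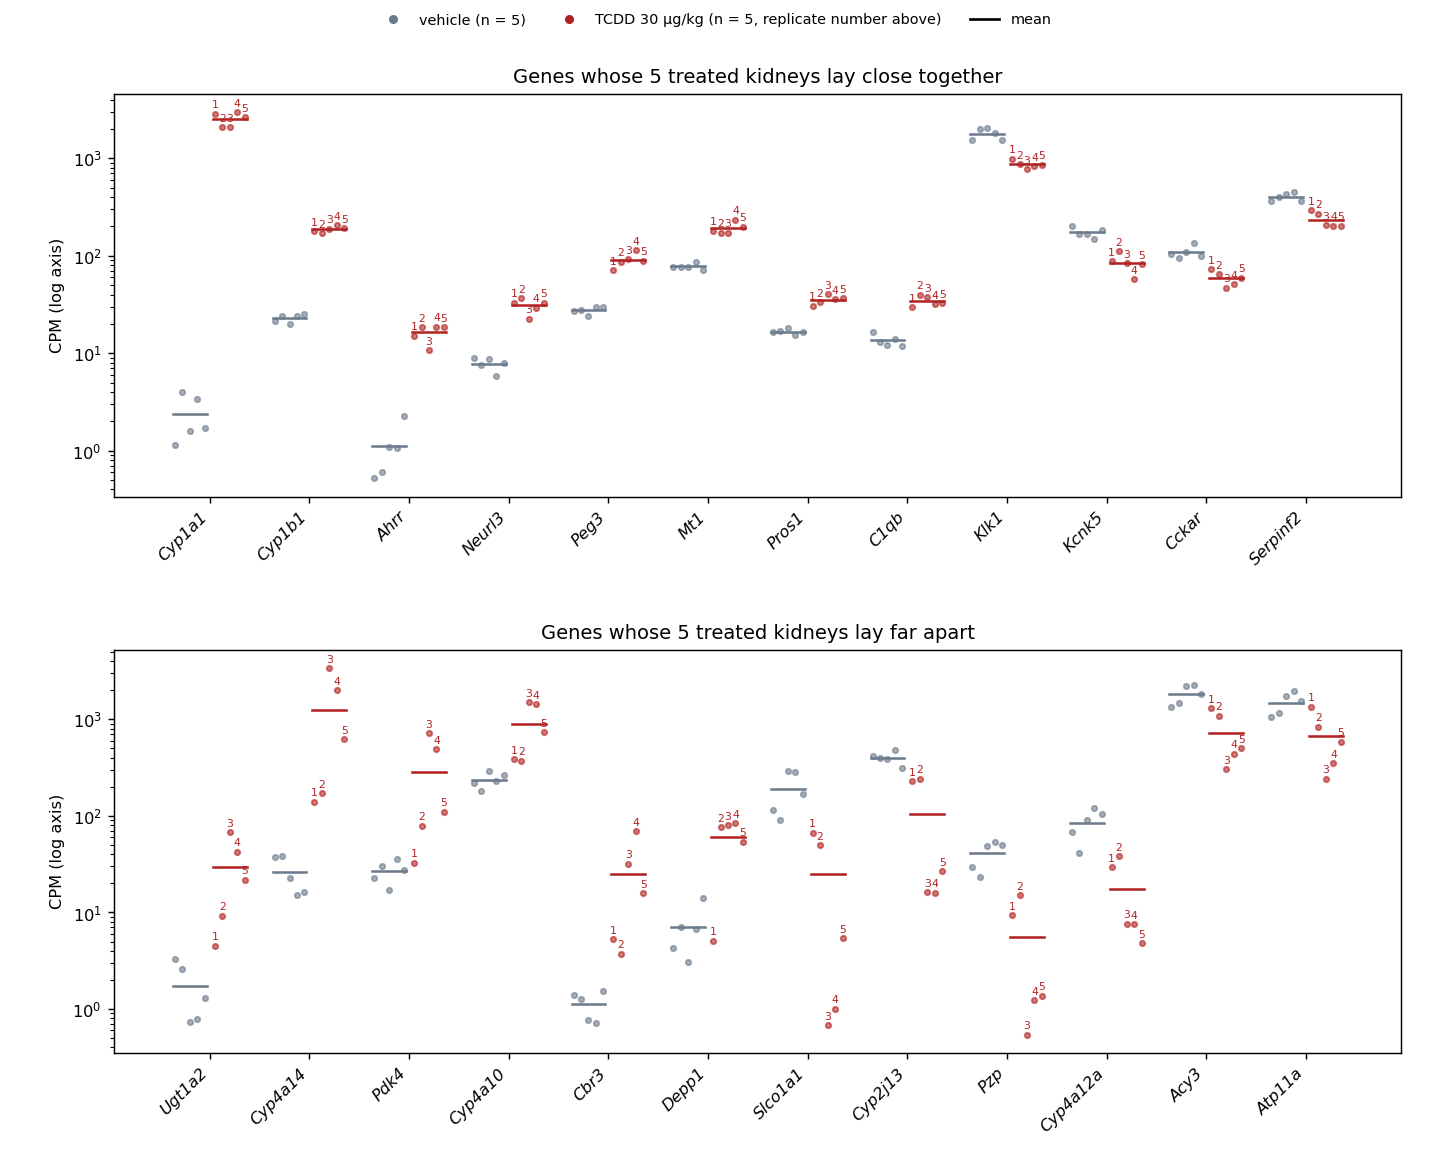
Level in CPM (log axis) of 12 genes whose 5 treated kidneys lay closer together (upper panel) and 12 whose treated kidneys lay farther apart (lower panel). Vehicle kidneys are in grey, treated kidneys in red with their replicate numbers, and bars mark the means. In the upper panel the SD of log2 CPM among treated kidneys was 0.10 (Cyp1b1) to 0.34 (Ahrr and Kcnk5), and in the lower at least 0.90 (Acy3). Its median over all genes tested was 0.30. Cyp1b1 ran from 171.5 to 207 CPM in the treated kidneys, and Cyp4a14 from 141 to 3393 CPM.

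Genes of fatty acid oxidation and other targets of the lipid-sensing receptor PPARA rose strongly in treated replicates 3 and 4 and little in replicates 1 and 2. Of 28 tested, 21 were called higher and 0 lower, with a median log2 fold change of 0.67. The median deviation from the vehicle mean was 0.11, 0.26, 1.24, 1.01 and 0.34 (log2) in treated replicates 1 to 5. In the fit to the 10 libraries alone, 5 were called higher.

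Cyp4a14 (ENSMUSG00000028715), a fatty acid hydroxylase and a classical PPARA target, was at 37.2, 38.7, 22.9, 15.3 and 16.3 CPM in vehicle and at 141, 171, 3393, 2004 and 623 CPM in the treated kidneys. All 5 treated kidneys exceeded vehicle, replicate 3 the most and replicate 1 the least (log2 fold change 5.60 ± 0.71, edgeR adjusted p = 1.06e-06, and 4.80 without replicate 3). Cyp4a10, a close paralog whose reads may be hard to separate from its relatives, was at 388, 375, 1515, 1431 and 739 CPM against 183 to 289 CPM in vehicle. Pdk4, the kinase that shuts glucose carbon out of the mitochondrion, was at 22.8, 30.6, 17.1, 35.7 and 27.4 CPM in vehicle and at 32.9, 79.2, 720.5, 494 and 111 CPM in treated replicates 1 to 5. Its replicate 1 lay inside the vehicle range, the call was lost in the fit to the 10 libraries (edgeR adjusted p = 0.0577), and without replicate 3 its log2 fold change was 2.74 in place of 3.43. Smaller changes were those of Vnn1, a pantetheinase, at 112, 148, 299.8, 251 and 110.3 CPM against 64 to 96.3 CPM in vehicle, and of Hadha, a subunit of the mitochondrial trifunctional enzyme, at 289, 338, 531, 489 and 390.1 CPM against 239.8 to 289.9 CPM in vehicle. Outside the list, Depp1, a gene induced by fasting, was at 5.11, 76.5, 80.1, 84.7 and 53.9 CPM against 3.07 to 14.3 CPM in vehicle, with replicate 1 alone inside the vehicle range. The median SD of the PPARA list on the log2 scale was 0.54 at 30 µg/kg and 0.12 to 0.17 in the other 7 groups.

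Genes that androgen maintains in the male kidney fell, again most in replicates 3, 4 and 5. Of 16 tested, 14 were called lower and 0 higher, with a median log2 fold change of -0.98. The median deviation was -0.35, -0.58, -1.62, -1.46 and -1.47 in treated replicates 1 to 5 and -0.20 to 0.30 in vehicle. In the fit to the 10 libraries 3 were called lower, and in a limma-voom fit with a spread per group all 14 were. Slco1a1 (ENSMUSG00000041698), an organic anion carrier of the male kidney, was at 116, 90.8, 294, 284 and 171 CPM in vehicle and at 66.9, 50, 0.678, 1.01 and 5.39 CPM in treated replicates 1 to 5. Replicates 3 and 4 were nearly without the transcript, while replicate 1 was within 1.5 times the lowest vehicle kidney. Its log2 fold change was -2.95 ± 0.60 (edgeR adjusted p = 0.000617), -3.75 without replicate 1, and the adjusted p was 0.183 in the fit to the 10 libraries.

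Cyp2j13, an arachidonate epoxygenase, was at 418, 399.9, 391, 477 and 314 CPM in vehicle and at 228, 242, 16.3, 16.1 and 26.6 CPM in the treated kidneys, which thus fell into 2 levels with replicates 1 and 2 on the upper. Cyp4a12a, the main 20-HETE synthase of male mice, was at 68.2, 41.7, 90.2, 120.4 and 104 CPM in the vehicle and 29.6, 38.2, 7.66, 7.52 and 4.78 CPM in the treated kidneys. Cyp4b1, another hydroxylase, was at 3974, 3802, 3512, 3788 and 3331 CPM in the vehicle and 2096, 3264, 1217, 1178 and 1060.2 CPM in the treated kidneys. In all of these the treated kidneys stayed below every vehicle kidney. None was called in the fit to the 10 libraries (edgeR adjusted p = 0.247, 0.0771 and 0.0621). Timd2, a ferritin receptor, fell from a range of 64 to 76.3 to one of 27.5 to 52.5 CPM, and Adh1, alcohol dehydrogenase, from a range of 256 to 452 to one of 138 to 238 CPM, both also called in that fit. Outside the list, Pzp, a plasma protease inhibitor, went from 29.4, 23.1, 48.4, 53.6 and 49.8 CPM to 9.37, 15.2, 0.542, 1.24 and 1.38 CPM, and its log2 fold change was -2.90, or -3.72 without treated replicate 2. Gm15348 and Gm6300, predicted genes that were also lowest in treated replicates 3 to 5, had log2 fold changes of -1.80 ± 0.40 and -2.81 ± 0.72. Treated replicate 1 held 21.6 CPM of Gm6300, whose log2 fold change was -5.87 without it. The calls of Pzp, Gm15348 and Gm6300 were lost in the fit to the 10 libraries (edgeR adjusted p = 0.0786, 0.224 and 0.298), and that of Gm6300 also with limma-voom (limma adjusted p = 0.259).

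The late proximal tubule (S3 segment) is where many of these genes are expressed, and its markers fell in part. Of 9 tested, 5 were called lower and 0 higher, with a median log2 fold change of -0.77 and medians of 0.04, -0.61, -2.41, -0.94 and -0.70 in treated replicates 1 to 5. In the fit to the 10 libraries edgeR called 0, with 3 of 9 at an unadjusted p under 0.05, and limma-voom called 4. Acy3, an aminoacylase, was at 1345, 1466, 2221, 2248 and 1813 CPM in vehicle and at 1309.7, 1097, 304, 442 and 505 CPM in the treated kidneys. Atp11a, a phospholipid flippase, was at 1064, 1167, 1729, 1950.5 and 1561 CPM in the vehicle and 1354, 844, 244, 354 and 590.4 CPM in the treated kidneys, with replicate 1 inside the vehicle range. Slc5a8, the sodium-coupled lactate carrier, was at 199, 212, 289, 272 and 291 CPM in the vehicle and 195, 189.6, 118, 83.5 and 153 CPM in the treated kidneys. Cyp7b1, an oxysterol hydroxylase, differed as much within vehicle, at 26.4, 31.4, 254, 288 and 229 CPM, and was at 114, 33.6, 11.1, 55.6 and 47.4 CPM in the treated kidneys. Its call was lost in the fit to the 10 libraries and in the limma-voom fit (adjusted p = 0.304 with edgeR and 0.152 with limma). Vehicle replicates 1 and 2 lay lower than the other vehicle kidneys for this list, at median deviations of -0.45 and -0.51. Treated replicate 1, at 0.04, lay inside the vehicle range of -0.51 to 0.42. For the androgen-responsive list it lay below that range's counterpart, at -0.35 against -0.20 to 0.30 in vehicle. The summed level of the 9 markers was 3557 to 6754 CPM in vehicle and 1218 to 4725 CPM at 30 µg/kg. Whether the share of this segment in each sample took part in the falls was not tested.

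Genes induced by interferons were higher at 30 µg/kg, in a different order of kidneys. Of 30 genes of the type I interferon response 23 rose and 0 fell, with a median log2 fold change of 0.95. Treated replicates 1 to 5 had median deviations of 1.07, 1.29, 0.27, 0.47 and 0.97. Ifit1, which binds foreign RNA caps, was at 4.32, 3.29, 2.89, 3.02 and 3.68 CPM in vehicle and at 15.7, 16, 4.14, 9.09 and 10.8 CPM in treated replicates 1 to 5. Replicate 3 fell inside the vehicle range and replicates 1 and 2 were the highest. Irf7, the transcription factor that amplifies interferon production, was at 33.9, 29.8, 12.5, 22.4 and 27.2 CPM against 8.5 to 11.9 CPM in vehicle, with the same replicate lowest. Oasl2, an antiviral OAS-like protein, rose from a range of 6.97 to 9.57 to one of 12.9 to 21.2 CPM. Ddx58, which encodes the RNA sensor RIG-I, was the even member, at 29.9, 28.7, 29.4, 28.3 and 30.8 CPM in vehicle and 43.2, 47, 45, 46.8 and 44.3 CPM in the treated kidneys. The fit to the 10 libraries called 16 of the 30 higher.

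Guanylate-binding proteins and immunity-related GTPases, which attack pathogen vacuoles and are induced above all by interferon gamma, were also higher. Their list of 20 genes also holds the transcription factor gene Irf1 and the chemokine genes Cxcl9 and Cxcl10. Of the 20, 16 were higher and 0 lower, with a median of 1.20, 13 in the fit to the 10 libraries and 8 in the limma-voom fit. Replicates 1 to 5 had medians of 1.20, 1.54, 0.07, 1.18 and 1.17, so that replicate 3 stood at the vehicle level. Gbp2b (ENSMUSG00000040264) was at or under that floor in vehicle and at 2.21, 4.52, 0.949, 2.19 and 2.21 CPM in the treated kidneys, at least 14.9-fold higher. Gbp3 was at 6.51, 5.88, 7.78, 7.63 and 6.57 CPM in vehicle and at 20.9, 22.4, 10.1, 22.6 and 18.4 CPM at 30 µg/kg. Gbp2 was at 8.76, 10.4, 7.21, 11.1 and 10.7 CPM in the vehicle and 25.7, 26.1, 15.6, 22.4 and 26 CPM in the treated kidneys. In all of these replicate 3 was the lowest treated kidney and lay above vehicle. Irf1, the factor that drives this family, rose from a range of 10.4 to 13.5 to one of 18 to 32.3 CPM. The Gbp genes are close paralogs in clusters, so reads may be split between them.

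Stretches upstream of 4 interferon-induced genes are shown, chosen because they hold an interferon-type motif. The ISRE-type motif GAAANNGAAA or its reverse complement TTTCNNTTTC, searched on both strands in the same windows, was present in 3.46% of all 27025 windows and in 3.34% of those of tested genes. It was present in 6.61% of the windows of genes called higher, 2.02% of those called lower, 11 of 13 in the GTPase list (84.6%) and 10 of 21 in the type I interferon list (47.6%). Among the 11 in the GTPase list is the chemokine gene Cxcl10. Capitals mark the motif, and overlapping matches run together. These shares are descriptions without a test, and Gbp windows are related in sequence.
Gbp2b: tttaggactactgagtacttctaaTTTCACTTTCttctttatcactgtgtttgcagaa
Gbp2: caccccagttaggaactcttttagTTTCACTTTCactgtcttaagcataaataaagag
Gbp3: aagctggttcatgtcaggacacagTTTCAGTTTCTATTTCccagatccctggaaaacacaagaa
Ifit1: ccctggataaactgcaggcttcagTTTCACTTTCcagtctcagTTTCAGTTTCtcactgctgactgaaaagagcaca
They lie at chr3:142594686-142594743, chr3:142620580-142620637, chr3:142559975-142560038 and chr19:34640761-34640837 (GRCm38.p6), upstream of the first exon. Gbp3 and Ifit1 held 2 matches each, and Gbp2b and Gbp2 held 1.

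Antigen presentation genes rose in all treated kidneys, with replicate 3 again lowest. Of 15 genes of MHC class I, its peptide processing and its loading, 14 rose and 0 fell (median 1.06, 13 in the fit to the 10 libraries). H2-K1, a classical heavy chain, was at 220.5, 219.7, 196, 225 and 235 CPM in vehicle and at 360.5, 409.8, 294, 707 and 657 CPM in treated replicates 1 to 5, highest in replicates 4 and 5. The non-classical H2-Q4 was at 38.3, 40.5, 30.4, 59.1 and 51.4 CPM against 17.1 to 21.3 CPM in vehicle, and H2-Q6 and H2-Q7 rose by 1.16 and 1.09 on the log2 scale. The H2-Q genes are near-identical copies, and their separate values are uncertain. Of 9 tested MHC class II genes, which serve antigen-presenting cells, 8 rose and 0 fell (median 1.10). Cd74, the invariant chain, was at 116, 120.3, 106, 109 and 120.1 CPM in vehicle and at 240.1, 326, 165, 383 and 419 CPM in the treated kidneys. H2-Ab1 was at 128, 162, 82.2, 197 and 204 CPM against 51.9 to 61.3 CPM in vehicle, H2-Aa at 106, 139.6, 75.9, 109 and 106 CPM against 48.9 to 53.5 CPM in vehicle, and H2-Eb1 at 100.1, 139, 79.7, 116 and 127 CPM against 44.4 to 59 CPM in vehicle. None of the treated kidneys overlapped the vehicle range for these class II genes.

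**Figure D4:**
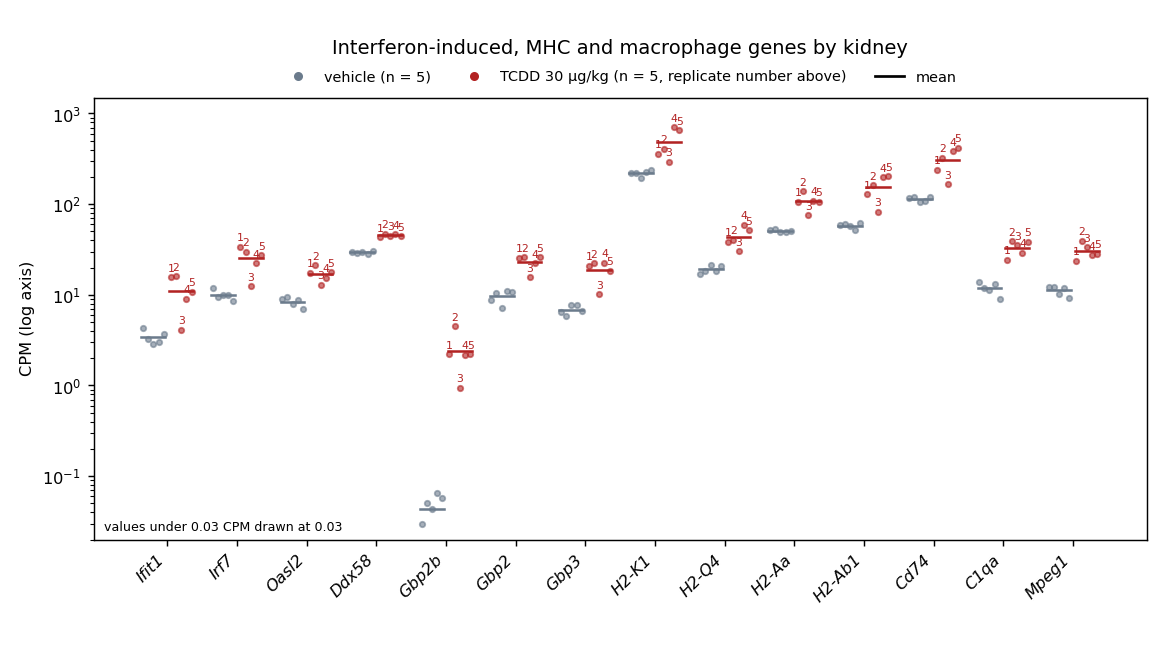
Level in CPM (log axis) of 14 interferon-induced, antigen presentation and macrophage genes in the 5 vehicle kidneys (grey) and the 5 kidneys at 30 µg/kg (red, with replicate numbers), with bars at the means. Treated replicate 3 is the lowest treated kidney for Ifit1 (4.14 CPM), Gbp2b (0.949 CPM) and Cd74 (165 CPM), but not for the macrophage genes C1qa and Mpeg1.

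Macrophage markers rose. Of 19 tested, 15 were higher and 0 lower, with a median of 1.29 and medians of 1.05 to 1.57 in the 5 treated kidneys, and 12 were called in the fit to the 10 libraries. Their summed level was 130 to 187 CPM in vehicle and 267 to 348 CPM at 30 µg/kg, and none of the 19 was at 0 throughout. C1qa, C1qb and C1qc, the chains of complement C1q made by resident macrophages, were at 24.3, 39.1, 35, 29.2 and 38.4 CPM, at 29.6, 40, 37.8, 31.8 and 32.7 CPM and at 21, 27.3, 23.5, 21.1 and 22.4 CPM in treated replicates 1 to 5. Their vehicle ranges were 8.95 to 13.9, 11.9 to 16.5 and 7.23 to 10.6 CPM, without overlap. Mpeg1, a pore-forming macrophage protein, rose from a range of 9.12 to 12.3 to one of 23.9 to 39.4 CPM. Of 14 lymphocyte markers tested, edgeR and DESeq2 called 0 in either direction, 1 had an unadjusted edgeR p under 0.05, and the list summed to 8.02 to 12.6 CPM in vehicle and 6.92 to 17.7 CPM at 30 µg/kg. The T cell chains Cd3e, Cd3d and Cd3g stood at 0.314 ± 0.212, 0.325 ± 0.449 and 0.444 ± 0.323 CPM at 30 µg/kg against 0.342 ± 0.138, 0.287 ± 0.122 and 0.67 ± 0.189 CPM in vehicle, so these markers rested on few counts. The immunoglobulin gene Igha, described above as lower, was not in the lymphocyte list. Replicate 3, low for interferon-induced genes, was at 1.07 for the macrophage list. The part of macrophage number in the MHC class II and interferon rises was not tested.

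Endothelial markers rose in part, where 8.39% of all genes tested were called higher. Of 18 endothelial markers 11 were higher and 0 lower (median 0.46, 9 in the fit to the 10 libraries), with medians of 0.40 to 0.58 in the 5 treated kidneys. Emcn, a sialomucin of capillaries and veins, was at 62.2, 53.5, 63.6, 77.3 and 63.5 CPM in vehicle and at 113, 109.5, 97.9, 112 and 102 CPM in the treated kidneys. Cdh5, the endothelial cadherin, was at 33.3, 30.6, 30.5, 40.5 and 38.5 CPM in the vehicle and 52.3, 53.7, 47.3, 55.2 and 63.5 CPM in the treated kidneys, and neither gene overlapped between groups. Robo4 and Ptprb, an endothelial receptor and a phosphatase, rose by 0.78 and 0.63 on the log2 scale. Of 10 podocyte markers 4 were called higher and 0 lower (median 0.37), with medians of 0.24 to 0.64 in the treated and -0.38 to 0.25 in the vehicle kidneys. Podxl, the podocyte sialomucin, rose from 191 ± 24.5 to 273 ± 31.3 CPM, and Synpo from 55.7 ± 10.3 to 79.1 ± 16.1 CPM. Plce1 was called with a log2 fold change of 0.55 and not called without treated replicate 4 (0.45). The fit to the 10 libraries called 2 podocyte markers higher, where it called 4.09% of all genes higher.

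Transcripts of injured tubules rose in part, where 8.39% of all genes tested were called higher and 7.55% lower. Of 19 tested, 12 were higher and 1 lower (median 0.92), with medians of 0.39, 0.74, 0.91, 1.01 and 1.54 in treated replicates 1 to 5. Cd44, the hyaluronan receptor, was at 3.52, 1.06, 0.432, 1.51 and 2.66 CPM in vehicle and at 11.9, 12.7, 10.5, 9.32 and 14.6 CPM in the treated kidneys. Cdkn1a, the cell cycle inhibitor p21, was at 6.97, 10.8, 8.51, 12.3 and 10.5 CPM in the vehicle and 23.2, 21.7, 50.4, 35.3 and 42.4 CPM in the treated kidneys. C3, complement component 3, was at 77.5, 107, 449.7, 372 and 267 CPM against 26.5 to 78.3 CPM in vehicle, and Fgg, the fibrinogen gamma chain, at 5.79, 10.7, 71.7, 45.5 and 26.4 CPM against 4.19 to 8 CPM in vehicle. The last pair had replicate 1 inside the vehicle range and replicate 3 highest, and the call of Fgg was lost in the fit to the 10 libraries (edgeR adjusted p = 0.0769). Lcn2, the lipocalin NGAL, was at 1.82, 2.6, 6.17, 6.79 and 5.96 CPM against 0.861 to 2.72 CPM in vehicle, beyond vehicle in replicates 3, 4 and 5. Havcr1, which encodes KIM-1, stood at 1.36, 0.566, 0, 0.281 and 1.6 CPM against 0.355 to 2.3 CPM in vehicle and did not pass (edgeR adjusted p = 0.444).

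Of 19 fibrosis genes 8 were called higher and 0 lower (median 0.35). The count higher was 5 without vehicle replicate 1, vehicle replicate 3 or treated replicate 5, and 3 in the fit to the 10 libraries. Among all genes tested, the fit to 40 libraries called 8.39% higher and that to the 10 libraries 4.09%. Lox, which cross-links collagen, was at 3.8, 2.53, 6.31, 4.27 and 6.12 CPM in vehicle and at 8.8, 11.1, 16.3, 30.3 and 18.1 CPM in the treated kidneys. Replicate 4 was the highest, and the groups did not overlap. Pdgfrb, the pericyte receptor, rose from a range of 37.2 to 49.6 to one of 56 to 75 CPM. Ccn2, connective tissue growth factor, was at 24, 92.3, 108, 108 and 86.1 CPM against 24.1 to 49.6 CPM in vehicle, with replicate 1 just under the lowest vehicle kidney, the others above all of them, and the call lost in the fit to the 10 libraries (edgeR adjusted p = 0.125). Sparc, a matrix glycoprotein, was at 247, 297, 182, 195 and 228 CPM against 146 to 197 CPM in vehicle, beyond vehicle in 3 of 5 kidneys.

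Other nephron segments changed gene by gene, where 8.39% of all genes tested were called higher and 7.55% lower. In the early proximal tubule (S1 to S2), 3 of 13 markers rose and 3 fell, or 0 and 2 in the fit to the 10 libraries. Slc34a1, the phosphate carrier, was at 7723, 8178, 6549, 6853 and 6737 CPM in vehicle and at 5410.1, 6511, 5112, 3811 and 3845 CPM in the treated kidneys, all below vehicle. Slc22a6, the organic anion carrier OAT1, was at 1125, 1199.9, 1067, 1155 and 987 CPM in the vehicle and 826, 930.1, 521, 414 and 458 CPM in the treated kidneys, lowest in replicates 3 to 5 and below vehicle throughout. Cubn, the cubilin receptor, rose instead, at 562, 777, 1159, 763 and 580.2 CPM against 460 to 582 CPM in vehicle, highest in replicate 3, and Slc7a7, an amino acid carrier, at 171, 271, 391, 209 and 168 CPM against 116 to 187 CPM in vehicle. Neither rise was called in the fit to the 10 libraries (edgeR adjusted p = 0.0777 and 0.128). Of 8 thick ascending limb markers edgeR called 0 in either direction, with 1 at an unadjusted p under 0.05, and DESeq2 called 1 lower. Umod, uromodulin, was at 556, 690.5, 912, 1176 and 1485 CPM in vehicle and at 782, 719.8, 759, 1112 and 1369 CPM in the treated kidneys, a range common to both groups, and Slc12a1, the NKCC2 carrier, at 369 to 1361 and 506 to 1291 CPM.

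The distal convoluted tubule had 3 markers lower and 1 higher of 7, or 3 and 0 in the fit to the 10 libraries. Over all genes tested, the fit to 40 libraries called 7.55% lower and 8.39% higher. Pvalb, parvalbumin, was at 31.7, 40.2, 36.1, 26.6 and 19.6 CPM in vehicle and at 14.8, 17.5, 6.03, 8.81 and 9.21 CPM in the treated kidneys. Calb1, the calcium buffer calbindin, was at 535, 602, 650, 547 and 494 CPM in the vehicle and 409, 435, 354, 392 and 365 CPM in the treated kidneys, and Slc8a1, the calcium exchanger, fell from 254 ± 20.1 to 159 ± 28.9 CPM. These 3 did not overlap between groups and were called in the fit to the 10 libraries. Klhl3, called higher at 0.25, lost the call when any 1 of vehicle replicates 3, 4 and 5 or treated replicates 3, 4 and 5 was left out (0.20 to 0.24). In collecting duct principal cells 4 of 8 markers were lower and 1 higher. The fit to the 10 libraries called 0 lower, with 5 of 8 at an unadjusted edgeR p under 0.05 in either direction, and limma-voom called 1 lower. Over 40 libraries the count was 1 lower without treated replicate 2 and 2 without vehicle replicate 5 or treated replicate 3. Hsd11b2, which protects the mineralocorticoid receptor from glucocorticoids, was at 249, 206, 182, 236 and 261 CPM against 237 to 323 CPM in vehicle, and its call was lost in the fit to the 10 libraries (edgeR adjusted p = 0.086). In intercalated cells, 3 of 9 were higher and 2 lower, or 1 higher without vehicle replicate 1 or 3 or treated replicate 4 or 5, and 1 and 1 in the fit to the 10 libraries. Kit rose from a range of 19.9 to 22.9 to one of 33.4 to 42.2 CPM, and the proton pump subunit Atp6v1b1 fell from a range of 105 to 135 to one of 85.2 to 102 CPM, both without overlap. The anion exchanger Slc4a1 was at 37, 26.6, 18.6, 40.4 and 39.3 CPM against 45.4 to 58.7 CPM in vehicle, and its call was lost in the fit to the 10 libraries (edgeR adjusted p = 0.0552).

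**Figure D5:**
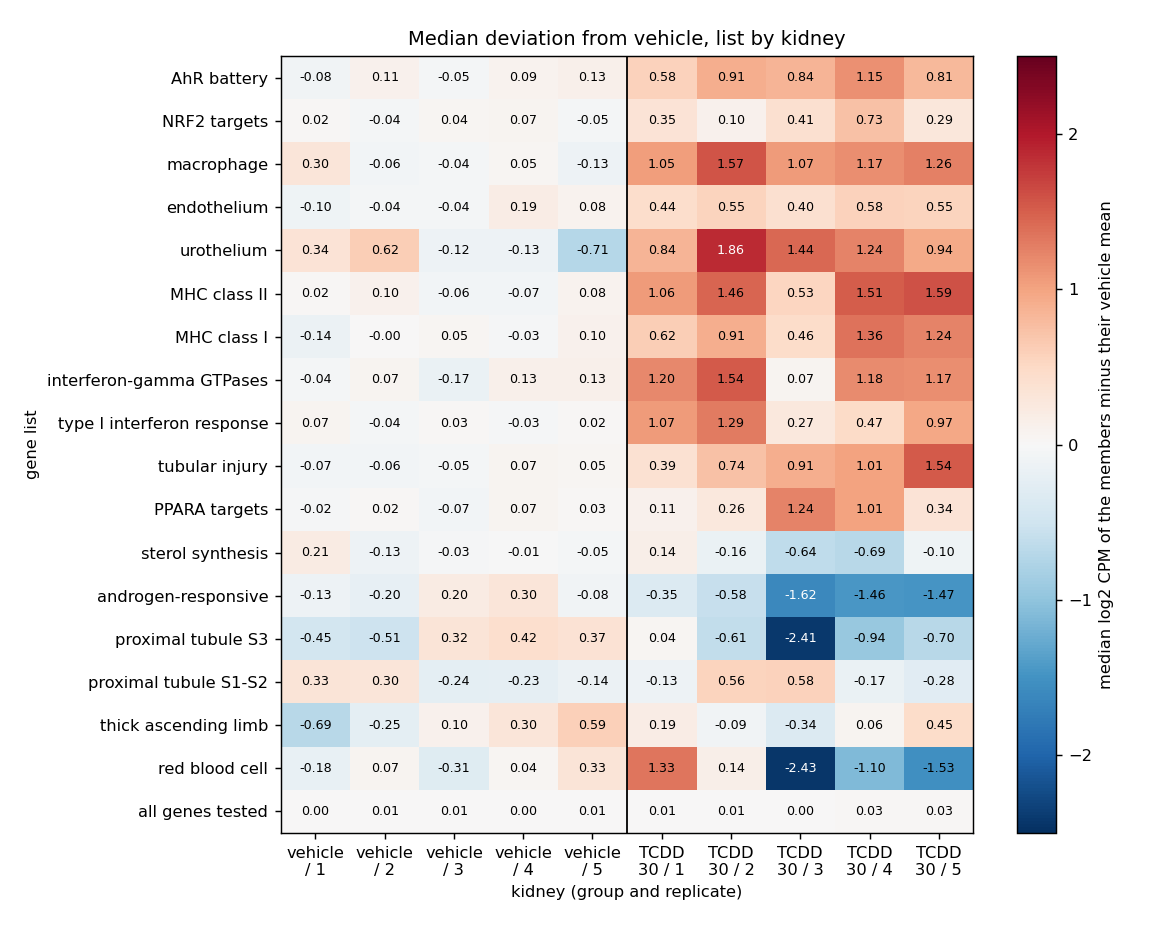
Median log2 CPM of the members of 17 gene lists and of all genes tested, minus the members' vehicle mean, in each of the 5 vehicle and 5 treated kidneys (red higher, blue lower). The AhR battery ran from 0.58 to 1.15 in the treated kidneys and endothelium from 0.40 to 0.58, while PPARA targets ran from 0.11 to 1.24 and S3 markers from -2.41 to 0.04.

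Markers of tissues that lie beside or within a kidney sample also differed between kidneys. Of 5 red blood cell genes edgeR and DESeq2 called 0, with 0 at an unadjusted p under 0.05, but treated replicates 1 to 5 had medians of 1.33, 0.14, -2.43, -1.10 and -1.53, and Hba-a1 stood at 575, 221, 42.2, 104 and 79 CPM against 175 to 308 CPM in vehicle. Without treated replicate 1, 2 of the 5 were called lower. The haemoglobin genes are close copies. Replicates 3, 4 and 5, which had the least haemoglobin RNA, were those with the lowest androgen-responsive genes. The part of blood content in those values was not tested. Of 5 urothelial markers 4 rose and 0 fell (median 1.29), with 3 higher in the fit to the 10 libraries and 3 without treated replicate 2. The uroplakin Upk2, of the bladder and pelvis lining, was at 4.67, 5.01, 2.98, 5.98 and 1.87 CPM in vehicle and at 11.5, 26.7, 14.4, 14.8 and 11.3 CPM in the treated kidneys. The 5 markers summed to 22.7 to 54.4 CPM in vehicle and 63.9 to 136 CPM at 30 µg/kg.

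Fat markers summed to 118 to 313 CPM in vehicle and 289 to 630.4 CPM at 30 µg/kg, with 1 of 8 called higher and 1 lower, or 2 and 0 in the fit to the 10 libraries. The gene called higher was Ucp1, the uncoupling protein of brown fat, at 11.9, 16, 9.93, 9.53 and 4.19 CPM in vehicle and 54.3, 114, 67.5, 120.4 and 110.3 CPM in the treated kidneys. Liver transcripts did not move as a block, with 2 of 7 higher and 2 lower and a median of -0.07. Over all genes tested, 8.39% were called higher and 7.55% lower. Serpina1a was at 34.9, 13.5, 48.2, 165 and 114 CPM against 3.75 to 38.3 CPM in vehicle, and lost its call without treated replicate 4 (log2 fold change 1.23). Apoc3 was called higher and F2 and Ttr lower. In the fit to the 10 libraries Serpina1a, Apoc3 and Ttr were not called and F2 was not tested. Pancreatic genes summed to at most 0.170 CPM in any of the 10 kidneys, with 4 of 6 at 0 in all of them. Muscle genes summed to at most 1.77 CPM and adrenal genes to at most 9.09 CPM.

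Sterol synthesis genes leaned lower, with 7 of 24 called lower and 0 higher (median -0.30), 4 without treated replicate 3, 3 without treated replicate 4 and 1 in the fit to the 10 libraries. Idi1, isopentenyl diphosphate isomerase, was at 58.8, 39.9, 59.3, 66.6 and 57.6 CPM in vehicle and at 51.6, 38.2, 15, 6.68 and 21.2 CPM in treated replicates 1 to 5. Replicates 3 and 4 were again the farthest from vehicle and replicate 1 was within it. Mvd, which makes the substrate of Idi1, was at 67.3, 47.1, 34.4, 37.4 and 43.7 CPM against 61.8 to 79.2 CPM in vehicle, and Sc5d, a late enzyme, at 50.3, 50.6, 46.1, 36.2 and 39.8 CPM against 50.4 to 69 CPM in vehicle. In vitamin D and calcium handling, 4 of 12 genes fell and 1 rose, the same numbers as in the fit to the 10 libraries. Over all genes tested, 7.55% were called lower and 8.39% higher. Cyp27b1, which makes active vitamin D, was at 5.3, 7.75, 5.66, 2.96 and 4.82 CPM in vehicle and at 18.2, 27.8, 111, 59.3 and 22.1 CPM in the treated kidneys, highest in replicate 3. Kl, the FGF23 co-receptor klotho, was at 1158, 1279.6, 1067, 1159.9 and 1104 CPM in the vehicle and 787, 953, 651, 515 and 601 CPM in the treated kidneys, lowest in replicate 4, and without overlap.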

How the data were processed

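Bulk RNA sequencing of mouse kidney was analysed from gene counts. Unnormalised counts for every gene, deposited by the authors as 1 file a library, have the layout of STAR output. The submitters' processing notes name FastQC 0.11.7, Trimmomatic 0.39, STAR 2.7.3a and DESeq2, and the builds GRCm39 and mm10, without saying which build was counted. Unstranded counts were used, so overlapping and antisense genes cannot be told apart, and reads carry no molecular identifiers, so depth covers counting error only. Of 55359 gene identifiers, 52083 were named with GENCODE M21, and the 3276 others held 0.663% of counts. The lines for unmapped, multi-mapped, no-feature and ambiguous reads stayed out of the library sizes (no-feature 5.55 to 6.99%).

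The test was edgeR's quasi-likelihood test (edgeR 4.0.16, R 4.3.3) with TMM factors of 0.966 to 1.09, fitted over 40 libraries with a term per dose and Benjamini-Hochberg adjustment at 0.05. CPM are counts scaled to a common library size with these factors. Alternatives were a fit to the 10 libraries, limma-voom with a spread per group (limma 3.58.1), DESeq2 1.42.0, other scalings and filters, counts of 1 strand, a term for 2 ranges of title numbers (up to 27 and from 28, meaning not given) and each library left out. The strand used held 50.35 to 51.04% of the counts of both strands, so that alternative does not separate antisense reads. The fits were also run on simulated data, and no outcome of that run is reported here. That run therefore does not show how the fits behave when dose groups differ in spread.

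Members and gene lists were chosen with earlier results of these data known, and some lists share members. Named genes were a fixed set of AhR and injury genes, the 10 largest rises and falls without overlap called in both edgeR fits, at a mean of at least 10 CPM the 5 others of lowest p in the 10-library fit and the 5 of largest spread among treated kidneys in each direction, and up to 4 members of each list by p. Some genes that this rule names are not reported here.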

Additional observations from a re-analysis of the deposited data

Results flagged for a closer look

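Of 96 groups of 5 values examined, 6 held a value set apart from the other 4 by over 0.71 of the whole range, where chance gives about 4.8. Arnt, the AhR partner, was at 57.2 CPM in treated replicate 3 and at most 47.3 CPM in the other treated kidneys. Apol7c was at 0.608 CPM in vehicle replicate 2 against at most 0.173 CPM in the other vehicle kidneys. In treated replicate 1, Smcp was at 1.36 CPM against at most 0.281 CPM in the other treated kidneys, Hrg at 1.59 CPM against at most 0.610 CPM, and Gm6300 at 21.6 CPM against at most 2.26 CPM. The total gene count of treated replicate 5 was 24017319, and the next highest treated library held 17700985.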

How the results depend on the processing

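The 2766 calls became 969 in the fit to the 10 libraries (631 higher, 338 lower) and 1822 with limma-voom and a spread per group, of which 833 were lower. The other alternatives gave 2281 (no filter) to 2973 (DESeq2). Leaving out a library gave 2014 (without treated replicate 4) to 3275 (without treated replicate 1), with 1095 to 1669 higher and 919 to 1606 lower. Rises made up 65.1% of the calls in the fit to the 10 libraries and 52.6% over 40. Of 139 named genes called, 95 kept the call in every alternative, 42 lost it in the fit to the 10 libraries and 16 with limma-voom, and none reversed. Ahr, not called and at 0.00, took a log2 fold change of -0.0014 in the fit to the 10 libraries, -0.0006 with RLE scaling, -0.0044 without a filter and -0.08 to 0.10 on leaving out a library. No paired analysis was possible because the labels carry no replicate number shared between groups. Depth limits genes of few counts, such as the lymphocyte markers.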

Other observations

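Among carriers of organic ions, 4 of 17 rose and 5 fell, where 8.39% of all genes were called higher and 7.55% lower. Abcc4, an efflux pump of the proximal tubule, was at 78.4, 63.6, 45.2, 48.1 and 54.8 CPM in vehicle and at 149.5, 197, 576, 448 and 345 CPM in treated replicates 1 to 5, highest in replicate 3. Abcc3, a related pump, was at 8.63, 15.4, 20.9, 29.9 and 30.5 CPM against 3.68 to 9.27 CPM in vehicle, with replicate 1 inside the vehicle range. Slc47a1, the proton-coupled cation exporter MATE1, was lower at 682, 772, 545, 480.3 and 486 CPM against 834 to 876 CPM in vehicle. Of 7 pump genes 2 rose and 1 fell, with Atp12a among those that rose. Of 9 renin and kallikrein genes 3 were called lower, and 1 in the fit to the 10 libraries. Ace, angiotensin-converting enzyme, was at 91.3, 86.9, 223, 269 and 235 CPM in vehicle, where replicates 1 and 2 were lowest, and at 115, 74.5, 40.3, 87 and 80.6 CPM in the treated kidneys. Its call was lost in the fit to the 10 libraries (edgeR adjusted p = 0.13).

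Of 19 clock genes 3 were called lower and 1 higher, where 7.55 and 8.39% of all genes were, and the fit to the 10 libraries called 2 lower and 0 higher. Hlf, a clock output factor, was at 78.2, 94.6, 57.2, 61 and 42.6 CPM against 96.5 to 118 CPM in vehicle without overlap, and Arntl, which encodes BMAL1, at 24.5, 21, 15.7, 17.5 and 28 CPM against 26.2 to 36.4 CPM in vehicle. Per1, a clock repressor, was at 15.4, 32.7, 88.9, 61.9 and 83.3 CPM against 16.8 to 31.6 CPM in vehicle, with replicate 1 below and replicates 2 to 5 above vehicle. Its call was lost in the fit to the 10 libraries and with limma-voom (adjusted p = 0.163 with edgeR and 0.17 with limma), and on leaving out vehicle replicate 1, 3 or 4 or treated replicate 3, 4 or 5. Of 7 gluconeogenesis genes 2 were called higher and 0 in the fit to the 10 libraries. Pck1, its key enzyme, was at 839, 1474, 3325, 1881 and 1038 CPM against 982 to 1205 CPM in vehicle, highest in replicate 3. Of 11 fatty acid synthesis genes 2 rose and 1 fell, where 8.39 and 7.55% of all genes did. Elovl6, an elongase, was at 62.7, 61.9, 54, 65.3 and 64.5 CPM against 29.5 to 57.9 CPM in vehicle. Over 40 libraries edgeR and DESeq2 called 0 of 16 cell cycle genes, 0 of 13 mitochondrial genes and 0 of 9 immediate early genes. At an unadjusted edgeR p under 0.05 the counts were 0, 0 and 3. Among immediate early genes the fit to the 10 libraries called 2 higher, and edgeR called 1 higher over 40 libraries without vehicle replicate 4 or treated replicate 2. One of the pair was Fos, at 1.19, 1.53, 1.49, 1.97 and 2.02 CPM in the treated kidneys against 0.389 to 0.98 CPM in vehicle (edgeR adjusted p = 0.0379 in that fit), and the other was Btg2, which is named after its value was seen.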
